A study of Mus musculus with 16 samples.

Results

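Bases added to the 3′ end of mature miRNAs as G alone, or as a mixture of bases, were followed in mouse fibroblasts across 12 h of serum. The entries described are the G and mixed addition classes of the 112 miRNAs, of 1167 in the table, that reached 200 CPM (reads scaled to a total of 1000000 miRNA reads) over the 16 libraries pooled. Of these 112, 92 had a G entry, 110 a mixed entry, 92 both and 2 neither. The miRNAs were chosen by their pooled level, so that they are abundant is no result. The share of a form is its reads over all reads of the same miRNA, with each read counted once.

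The cells were 3T9 fibroblasts, an immortalised mouse embryo line with no allele or agent named beyond serum. All groups had spent 72 h without serum, and the 0 h group was harvested at that point. The other groups had 1, 2, 4, 6, 8, 10 or 12 h of medium with 10% fetal bovine serum. Each time had 2 libraries, which the series calls independent biological experiments, and 1 cell line limits the groups as a model of fibroblasts.

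A mature miRNA is cut from a hairpin and guides Argonaute proteins to messenger RNAs through its seed, bases 2 to 8. Terminal nucleotidyltransferases can add bases to its 3′ end that the hairpin does not encode. Additions of A and U are the well-known kinds in animal cells and have been linked to miRNA stability and turnover, while G and mixed additions are less studied. The class names were read as follows: a G form carries only G, and a mixed form carries additions that are not all of 1 base. No source used here gives their exact definitions.

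Libraries held 5852087 to 7783249 miRNA reads, of which the 112 miRNAs held 99.1% over all libraries. The header names 2 sequencing runs, and replicate 1 of every time was in run 1 and replicate 2 in run 2, so the run and the experiment cannot be told apart. The fibroblast and mesenchyme markers summed to 345216 to 405738 CPM per library, with all 7 at 200 CPM or more. Markers of other cells were low, from 0 to 0.664 CPM for 4 pluripotent ones, 2.01 to 4.03 for 5 blood ones, 2.33 to 8.04 for 6 epithelial ones and 51.3 to 141 for 3 neural ones. The 4 liver and gut markers summed to 672 to 841 CPM, mostly miR-192-5p.

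Sequences are printed for miRNAs that share a seed but differ in their G or mixed share, so that their 3′ parts can be compared. They come from RefSeq (GRCm38.p6), in which 94 of the 112 miRNAs were matched by name. Capitals mark the seed.
miR-92a-3p: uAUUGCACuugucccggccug
miR-92b-3p: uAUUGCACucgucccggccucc
miR-25-3p: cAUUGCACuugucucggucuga
miR-152-3p: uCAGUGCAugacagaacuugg
miR-148b-3p: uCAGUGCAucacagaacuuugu
miR-148a-3p: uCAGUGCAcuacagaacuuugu
miR-130a-3p: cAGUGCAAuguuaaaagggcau
miR-130b-3p: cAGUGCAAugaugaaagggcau
miR-301a-3p: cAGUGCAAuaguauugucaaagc
miR-100-5p: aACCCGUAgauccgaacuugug
miR-99a-5p: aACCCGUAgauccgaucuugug

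The highest G shares belonged to 2 miRNAs with seeds of their own, and they are shown for that reason.
miR-652-3p: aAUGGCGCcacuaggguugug
miR-29a-3p: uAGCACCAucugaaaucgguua

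For 4 miRNAs whose mixed share changed with time, the mature sequences are as follows.
miR-155-5p: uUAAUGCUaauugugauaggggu
miR-191-5p: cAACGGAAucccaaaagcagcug
miR-26a-5p: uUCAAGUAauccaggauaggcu
miR-222-3p: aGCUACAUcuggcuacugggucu

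G additions were the rarest form and mixed additions were common. Over the 112 miRNAs, G forms made up 0.110% of reads and mixed forms 2.70%, beside 2.83% for A, 4.74% for U and 0.750% for C. Of all reads with added bases, 0.984% were G and 24.2% were mixed. The median miRNA had 0.0404% G and 1.24% mixed reads. No miRNA had G as its largest form, whereas mixed was the largest in 28, A in 43, U in 38 and C in 2.

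Few miRNAs carried a sizeable G share. Only 6 of the 112 were at 1% or more, 42 were at 0.1% or more, and 20 had no G read in any library. miR-652-3p, whose hairpin lies within a Tmem164 intron (chrX:142739000-142739097), had the highest, 7.02% of its 26596 reads (exact binomial 95% interval 6.72% to 7.33%, counting error only). Its share ran from 4.93% through a median of 6.68% to 7.94% over the 8 run 1 libraries, and from 5.37% through 7.65% to 8.87% in run 2. The runs overlapped, and every library lay above the highest value of any other G carrier. Added bases of any kind were on 79.3% of miR-652-3p reads, with U on 48.3% and A on 18.4%.

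Next came miR-29a-3p, of a family known to repress collagen genes, with a hairpin at chr6:31062660-31062747. Its G share was 2.97%, with 2.51%, 2.81% and 3.19% as lowest, median and highest in run 1 and 2.89%, 3.08% and 3.4% in run 2. For miR-29a-3p, G took 30.2% of all added reads, beside 8.85% for miR-652-3p. The other G shares above 1% were those of miR-130a-3p (1.58%), miR-130b-3p (1.34%), miR-100-5p (1.33%) and let-7b-5p (1.30%). Then followed miR-30c-5p at 0.646%, miR-128-3p at 0.589%, and miR-196b-5p and miR-320-3p at 0.516%.

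By reads the order was different, with some abundant miRNAs of small G share among the leaders. Other leaders, miR-100-5p and miR-29a-3p, were also among the highest by share. miR-27b-3p, a repressor of adipocyte regulators, gave 28993 G reads, 24.5% of those in the 112 miRNAs, at a share of 0.328%. It was followed by miR-100-5p (19100 reads), miR-143-3p (17945), miR-29a-3p (14068) and miR-92a-3p (6838), and these 5 held 73.5% of G reads. miR-22-3p, the most abundant miRNA at 146237 CPM, had 91 G reads, a share of 0.000571%. miR-99b-5p, at 91821 CPM, had 0 G reads of 10002423, which allows a share of up to 3.0e-05%. Among the other miRNAs with 0 G reads were let-7i-5p (0 of 2162511), miR-125a-5p and miR-125b-5p. The hairpin base after the mature end is G for let-7i-5p and miR-125a-5p, and U in the matched hairpin of miR-125b-5p.

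Mixed additions reached far higher shares, with 62 miRNAs at 1% or more, 20 at 5% or more and 9 at 10% or more. miR-92a-3p, the miR-17-92 cluster member made from 2 hairpins (chr14:115044427-115044506, in an exon of Mir17hg, and chrX:52741838-52741928), had 54.8% of its 2830839 reads in the mixed form. Its share ran from 54.7% through a median of 56.0% to 57.9% in run 1 and from 51.9% through 53.5% to 55.2% in run 2, so the runs overlapped only at their edges. Its 1551507 mixed reads were 53.2% of all mixed reads in the 112 miRNAs. A further 40.1% of its reads were templated extensions, and 1.56% equalled the reference. Of its added reads 94.3% were mixed.

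miR-23b-3p, of the miR-23b/27b cluster, was next at 36.7%, with 33.5% to 40.9% in run 1 and 31.2% to 40.3% in run 2. miR-152-3p, which targets DNA methyltransferase 1, had 32.8%, with 29.9% to 34.5% in run 1 and 31.2% to 36.1% in run 2. The plot of the 10 highest carriers of each form shows all libraries. The rest of the 10 were miR-218-5p (20.7%), miR-320-3p (18.8%), miR-140-3p (18.1%), miR-128-3p (17.4%), miR-328-3p (12.0%), let-7b-5p (11.9%) and miR-92b-3p (8.86%). Of the 10 highest of either form, 3 were in both lists: miR-128-3p, miR-320-3p and let-7b-5p.

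**Figure D1:**
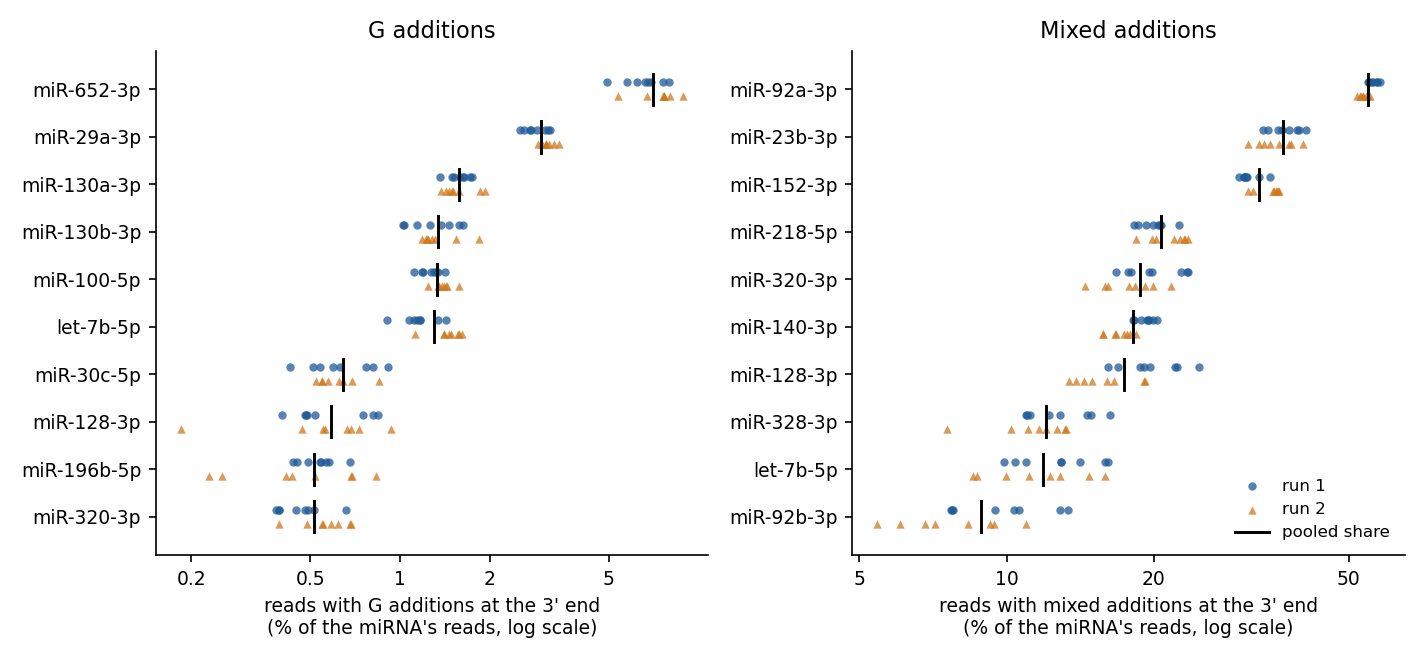
Share of reads with G additions (left) and mixed additions (right) for the 10 miRNAs with the highest pooled share of each, on log axes in % of the miRNA's reads. Points are the 8 libraries of each run and black bars the pooled share. miR-652-3p stands alone for G at 7.02%, and miR-92a-3p heads the mixed form at 54.8%.

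Sharing a seed did not mean sharing a G or mixed share. Among miRNAs with the seed AUUGCAC, the mixed share was 54.8% in miR-92a-3p, 8.86% in miR-92b-3p and 1.24% in miR-25-3p. With CAGUGCA it was 32.8% in miR-152-3p, 7.16% in miR-148b-3p and 1.74% in miR-148a-3p. miR-23b-3p stood at 36.7% and its paralog miR-23a-3p at 6.54%. The G share was 1.58% and 1.34% in miR-130a-3p and miR-130b-3p, whose mature ends are the same, and 0.0421% in miR-301a-3p, whose end differs. In the let-7 family of tumour-suppressor miRNAs, G ran from 1.30% in let-7b-5p through 0.328% in let-7c-5p to 0 reads in let-7i-5p and miR-98-5p. This range went with the next hairpin base, which is described below. let-7a-5p, let-7b-5p, let-7c-5p, let-7d-5p and let-7g-5p, at 0.163% to 1.30%, have U there. let-7e-5p (0.00307%), let-7i-5p and miR-98-5p have G there, and let-7f-5p (0.000184%) has G or U by hairpin. Values of near-identical paralogs such as these depend on how the authors assigned reads that match several miRNAs, and no source used here gives that rule.

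G shares differed by the hairpin base that follows the mature end. miR-100-5p (chr9:41531425-41531504) and miR-99a-5p (chr16:77598936-77599000) share a seed and the same mature end, and had G shares of 1.33% and 0 of 45510 reads, which allows up to 0.00659%. Their ends are printed with the next hairpin bases in capitals.
miR-100-5p end: uccgaacuugugCUGAUU
miR-99a-5p end: uccgaucuugugGUGAAG
The first hairpin base after miR-99a-5p is G and that after miR-100-5p is C. The 5 addition forms sum to the class named non-templated. By that name, an added G that matches a following G in the hairpin would be left out of the G form. The authors' exact rule was not tested. Over the 28 matched miRNAs with G as the following base, 15 had no G read, 21 had 10 or fewer, and the median share was 0. Where the following base was A (13 miRNAs) the median G share was 0.229%, for C (19) 0.0951% and for U (29) 0.0621%. Among these 4 bases, A, U and C shares were also lowest before their own base. The median U share was 0.0831% with a following U, beside 3.56% with A, 2.72% with C and 1.93% with G. For C it was 0.00957% with a following C and 0.0889% to 0.222% with the others. For A it was 0.401% with a following A and 1.38% to 1.57% with the others. For G the classes overlapped: miR-101b-3p (0.487%), miR-146b-5p (0.430%) and miR-183-5p (0.123%) had G reads with a following G, while miR-22-3p (0.000571%) had few with a following U. miR-125b-5p (0 reads) had none with a following U, but only its Mir125b-1 hairpin was matched by name. Hairpins that were not matched, and the 5 matched miRNAs with more than 1 following base, are not in these classes.

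Mixed additions showed no such gap by following base. The median mixed share was 1.95% with a following A, 1.42% with C, 1.03% with G and 0.836% with U. Mature length separated them more: the 14 miRNAs of 21 bases had a median mixed share of 6.07%, beside 1.09% in the 51 of 22 bases and 1.14% in the 22 of 23 bases. The G share also differed by length, with medians of 0.219%, 0.0237% and 0.0397% at 21, 22 and 23 bases. So did the U share (3.16%, 0.829% and 0.221%). The A share was 2.00%, 1.72% and 0.403%, and the C share 0.0160%, 0.268% and 0.0278%, lowest at 21 bases. The 21-base group includes miR-92a-3p, miR-152-3p, miR-140-3p, miR-128-3p and miR-218-5p. These are descriptions of the RefSeq mature form, and the 18 unmatched miRNAs, miR-23b-3p, miR-320-3p, miR-328-3p and miR-99b-5p among them, are not in these counts. A further 5 matched miRNAs, miR-92a-3p and miR-128-3p among them, have more than 1 following base. They are in the length counts but not in the medians by following base.

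**Figure D2:**
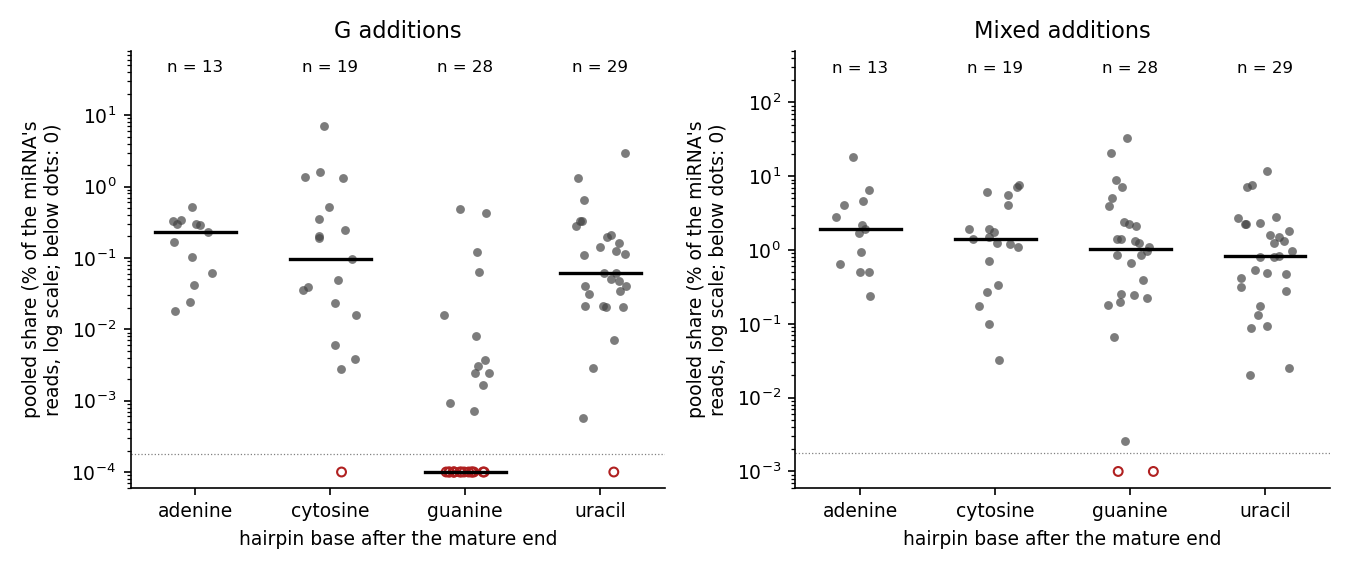
Pooled share of G additions (left) and mixed additions (right), in % of the miRNA's reads on log axes, by the hairpin base after the mature end; each point is a miRNA, bars are medians and open red circles below the dotted line had 0 reads. Most of the 28 miRNAs with guanine next lie at or near 0 for G, while mixed shares overlap across the 4 bases.

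Across the 112 miRNAs the G share was weakly tied to the other forms. Spearman's rho with the G share was 0.08 for A, 0.17 for U, -0.16 for C and 0.34 for mixed. Over miRNAs with reads in both forms it was 0.24 for A (89 miRNAs), 0.24 for U (89), 0.05 for C (82) and 0.30 for mixed (92), so the sign for C turned. With the mixed share it was 0.33 for A, 0.34 for U and 0.13 for C. Neither share followed abundance (rho 0.02 for G and -0.02 for mixed). All these values share libraries and denominators. miR-652-3p and miR-130b-3p were high in A, U and G, whereas miR-29a-3p had 0.0831% U.

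Over the time course the mixed share rose in many miRNAs, while the G share changed in few. Of the 99 miRNAs tested for the mixed form, 47 rose and 3 fell along a linear trend per hour (edgeR quasi-likelihood test, Benjamini-Hochberg over all 614 addition entries). Over all entries tested, 20.2% passed, 15.8% higher and 4.4% lower. For G, 49 of the 112 miRNAs passed the low-count filter, 1 rose and 1 fell. These fits had no term for run. With the replicate number as a block, 57 mixed shares rose and 3 fell, and 4 G shares rose and 2 fell. In that fit 37.8% of all entries passed (29.8% higher, 7.98% lower). The direction of the G calls turned with the denominator, with none higher and 4 lower against non-templated reads, 11 higher and 3 lower against reference reads, and 1 higher and 5 lower as levels on scaled library totals. The median trend over 12 h was 0.36 on the log2 scale for mixed and 0.03 for G, beside 0.38 for A, 0.33 for C and -0.00365 for U. Slopes were above 0 in 82 of 99 mixed, 83 of 98 A and 48 of 61 C shares, so upward slopes were not particular to the mixed form. Fewer A (22 of 98) and C shares (8 of 61) passed as rises. With the block, 60 of the A and 23 of the C shares rose.

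The 50 mixed trends had the same sign in each run fitted alone, and 39 passed in every fit that left out 1 library. A test of the difference in slope between runs called no entry, with 5 mixed and 1 G members at an unadjusted p under 0.05. Relative to 0 h, the median mixed share of the 99 was 0.01 log2 higher at 2 h in run 1 and 0.05 in run 2. At 4 h it was 0.10 and 0.15 higher, and at 12 h 0.38 and 0.29 higher. The rise of the median was thus small by 2 h and larger later in both runs.

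miR-30b-5p had the steepest trend, 0.24 ± 0.04 log2 per hour (SE; adjusted p = 0.000727, edgeR). In run 1 its mixed share at 0, 1, 2, 4, 6, 8, 10 and 12 h was 0.681%, 0.519%, 1.19%, 2.92%, 3.56%, 3.98%, 4.29% and 4.46%. In run 2 it was 0.392%, 0.578%, 1.09%, 2.97%, 3.58%, 3.24%, 4.06% and 2.70%. All libraries from 4 h on lay above all earlier ones. These shares rest on 26 to 133 mixed reads per library. Over the same hours its level went from 969 ± 33.6 to 352 ± 29.2 CPM (SD, n = 2 at each time), its reference reads went from 93% to 83.6% and all its added reads from 3.02% to 11.9%. It was the 1 of 6 tested in the miR-30 list that rose; miR-30c-5p had a trend of 0.03 ± 0.02 (adjusted p = 0.389).

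miR-155-5p, a regulator of immune responses from Mir155hg (chr16:84714140-84714204), rose by 0.14 ± 0.02 log2 per hour (adjusted p = 0.000172, edgeR). Its mixed share in run 1 was 5.33%, 3.52%, 2.28%, 4.96%, 7.51%, 8.91%, 9.73% and 9.45% at the 8 times. In run 2 it was 3.90%, 5.63%, 3.77%, 5.73%, 8.71%, 10.5%, 10.5% and 11.8%. The shares from 6 h on were above those of all libraries up to 4 h. Unlike miR-30b-5p, its level was higher at 12 h, going from 83.8 ± 5.39 to 267 ± 44.2 CPM, and its templated extensions went from 23.1% to 41.9%.

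miR-191-5p and miR-26a-5p had small errors for their slopes. miR-191-5p rose by 0.09 ± 0.01 per hour (adjusted p = 2.03e-09, edgeR), from 1.63% and 1.54% at 0 h to 3.18% and 2.98% at 12 h. miR-26a-5p, a repressor of Ezh2, rose by 0.08 ± 0.0042 (adjusted p = 9.6e-10), from 0.864% and 0.822% to 1.58% and 1.52%. The 12 h libraries of both miRNAs lay well above the 0 h ones. All added reads of miR-191-5p also went from 8.40% to 15%, and its mixed reads as a share of added reads had a slope of 0.01 (adjusted p = 0.772). miR-93-5p rose by 0.09 ± 0.01 (0.179% and 0.207% to 0.377% and 0.427%; adjusted p = 6.86e-05) and miR-196b-5p by 0.10 ± 0.02 (1.70% and 1.07% to 3.55% and 2.60%; adjusted p = 0.00456).

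In the let-7 list 8 of 10 mixed shares rose and none fell, with a median trend of 0.06 log2 per hour, beside 0.03 over the 99. let-7a-5p went from 0.349% and 0.338% at 0 h to 0.659% and 0.634% at 12 h. let-7b-5p went from 10.4% and 8.56% to 16.1% and 15.9%. In the miR-23/27/24 list none of 6 rose and 1 fell, and in the list of miR-199 and its cluster partner 3 of 3 rose, beside 47 of all 99 mixed forms tested. The highest mixed carrier, miR-92a-3p, had a slope of -0.00038 ± 0.0037 (adjusted p = 0.973), and its share was 54.3% ± 1.11 at 0 h and 54.7% ± 0.0195 at 12 h (SD, n = 2). miR-152-3p had a slope of 0.01 (adjusted p = 0.148), which passed with the replicate number as a block (adjusted p = 0.00507).

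miR-222-3p, a repressor of the p27 gene Cdkn1b, fell by 0.10 on the log2 scale per hour (SE 0.01; adjusted p = 1.69e-07, edgeR). Its mixed share went from 2.70% and 2.84% at 0 h to 1.46% and 1.15% at 12 h, without overlap. Its level meanwhile went from 1208 to 2672 CPM and its templated extensions from 90.4% to 95.7%, and with reference reads in place of all reads as the denominator the slope was 0.01 (adjusted p = 0.69). miR-23b-3p fell by 0.03 per hour (SE 0.0039; adjusted p = 0.000169), from 39.3% and 37.7% to 33.5% and 31.2%. miR-125b-1-3p fell by 0.08 (SE 0.02; adjusted p = 0.0143) on 15 to 45 mixed reads per library, and its call was lost without 0 h replicate 2 (adjusted p = 0.0502). As a level on scaled totals its slope was 0.05 (adjusted p = 0.092).

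**Figure D3:**
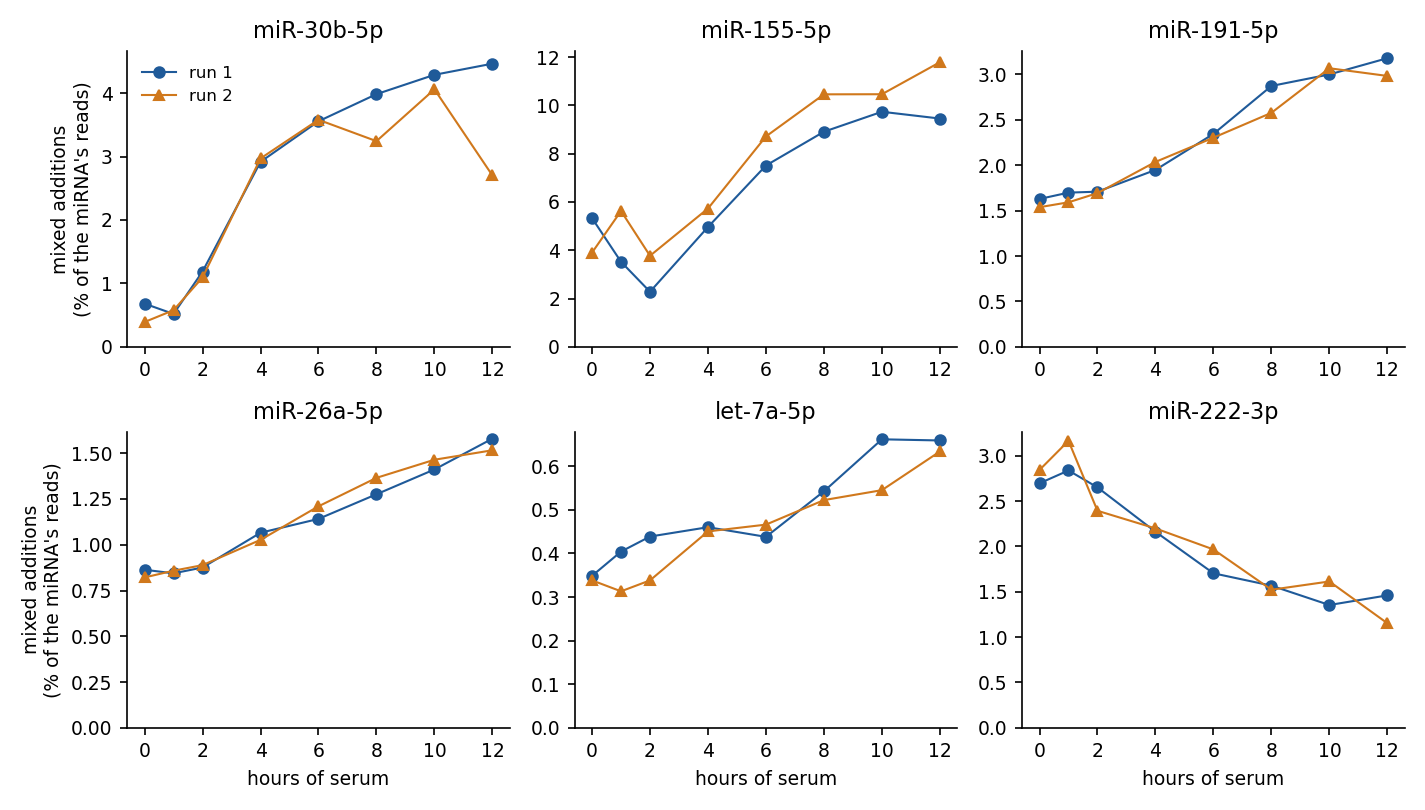
Mixed share in % of the miRNA's reads against hours of serum for 6 miRNAs, with run 1 as circles and run 2 as triangles; each point is 1 library and axes start at 0. 5 miRNAs end above their 0 h value in both runs, and miR-222-3p ends below it.

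Rises in the mixed share went partly with other forms and with level. Of the 47 miRNAs that rose, 14 also rose for A, 4 for U, 3 for C and 1 for G; the 14 are 29.8% of the mixed risers and 63.6% of the 22 A risers. These overlaps depended on the fit: with the replicate block 57 mixed forms rose, of which 43 also rose for A, 11 for U, 18 for C and 4 for G. The 43 are 75.4% of those mixed risers and 71.7% of the 60 A risers. Across miRNAs, the mixed slope had a Spearman rho of 0.45 with the A slope (92 miRNAs), 0.38 with U (84), 0.28 with C (59) and 0.36 with G (49). With all added reads as the denominator 23 mixed forms rose and 2 fell. The level was lower at 12 h than at 0 h in both runs for 34 of the 47 risers and for 23 of the 49 that did not pass. Across the 99, slope and log2 level change had a rho of -0.40. These values share libraries and reads, and the part of level in the trends was not tested.

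At 12 h against 0 h alone, 22 mixed shares were higher and 1 lower of 99 tested, where 7% of all entries passed (5.7% higher, 1.3% lower). With the replicate number as a block, 47 were higher and 3 lower, where 29.5% of all entries passed (23.3% higher, 6.19% lower). The largest differences were 2.73 ± 0.29 log2 for miR-30b-5p (adjusted p = 0.000444, edgeR), 1.20 ± 0.28 for miR-155-5p (0.0325) and 1.06 ± 0.23 for miR-93-5p (0.0241). miR-222-3p was lower, by 1.08 ± 0.14 (0.0014). Leaving out 0 h replicate 1 lowered the count of 23 to 8, and leaving out the other 0 h library lowered it to 5. Leaving out 12 h replicate 1 gave 7, and the other 12 h library 10. The calls of miR-155-5p and miR-93-5p were among those lost.

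For the G form no share passed at 12 h in edgeR or in DESeq2, with 3 at an unadjusted p under 0.05 in edgeR, while 3 passed with the block, 2 higher and 1 lower. Along the trend, let-7c-5p rose by 0.03 ± 0.01 log2 per hour (adjusted p = 0.0378, edgeR). Its G share was 0.249% and 0.313% at 0 h and 0.352% and 0.443% at 12 h, so both runs moved up while run 2 stayed higher. With non-templated reads as the denominator its slope was -0.00695 (adjusted p = 0.788). miR-130b-3p fell by 0.04 (SE 0.01; adjusted p = 0.0217), from 1.45% and 1.84% to 1.03% and 1.31%, on 32 to 77 G reads per library. Both calls depended on single libraries: that of let-7c-5p was lost without any 1 of 8 libraries and that of miR-130b-3p without any 1 of 3 (0 h replicate 2, 1 h replicate 1 or 12 h replicate 1). With the block 6 G trends passed, 4 up and 2 down, where 37.8% of all entries passed (29.8% higher, 7.98% lower), adding let-7b-5p, miR-199a-5p and miR-23a-3p upward and miR-92a-3p downward.

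Among the other miRNAs high in G, miR-652-3p had a slope of -0.02 ± 0.01 (adjusted p = 0.188), miR-29a-3p -0.01 ± 0.01 (0.668), miR-100-5p -0.01 ± 0.01 (0.651) and miR-27b-3p -0.01 ± 0.01 (0.375), none of which passed. The mixed shares of miR-652-3p (0.06 ± 0.02; adjusted p = 0.0229) and miR-29a-3p (0.04 ± 0.01; 0.0011) did rise.

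**Figure D4:**
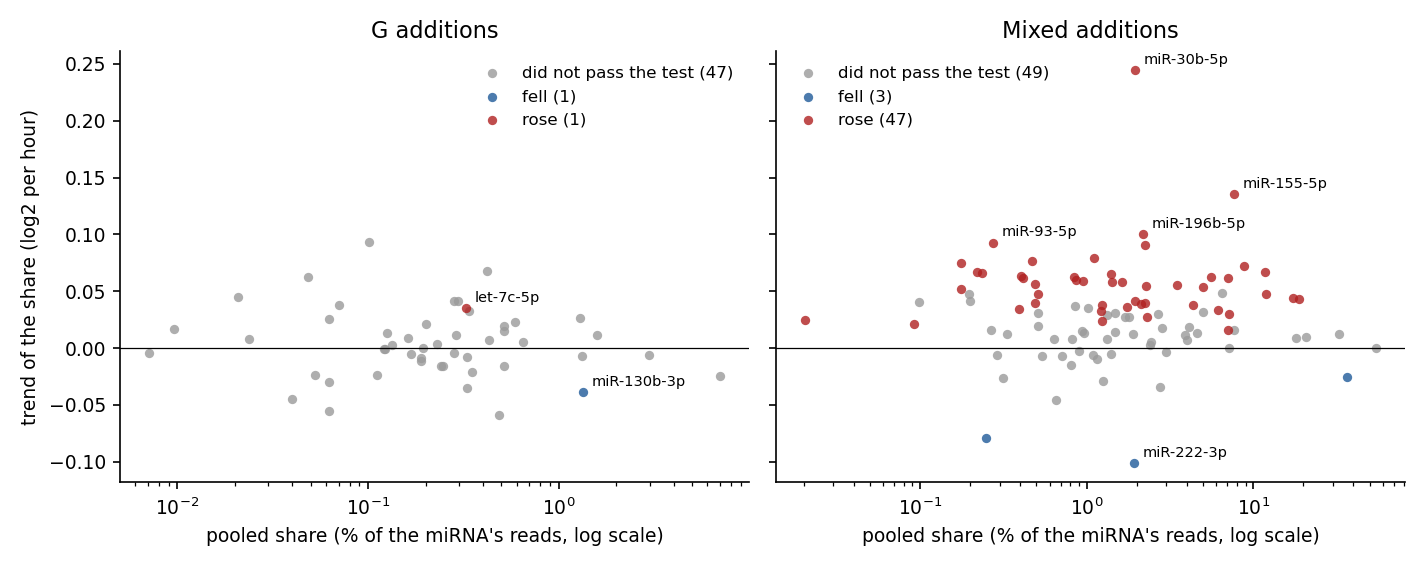
Trend of the share in log2 per hour against the pooled share in % (log axis) for G (left, 49 miRNAs) and mixed additions (right, 99); red rose, blue fell and grey did not pass at an adjusted p of 0.05. Most mixed points lie above 0 at all shares, and G points lie on both sides.

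The runs differed in all 5 forms, and G and mixed shares passed no more often than all entries together. Of those that passed, more G shares were higher and more mixed shares lower in run 2. In run 2 against run 1, within times, 13 of 49 G shares were higher and 1 lower, and 10 of 99 mixed shares were higher and 32 lower. Over all entries 46.3% passed this test, 21.2% higher and 25.1% lower, beside 28.6% of the G and 42.4% of the mixed shares. The largest G increases in run 2 were in miR-192-5p (0.62 ± 0.22 log2; adjusted p = 0.0251, edgeR), miR-335-3p (0.59 ± 0.20; 0.0163) and miR-186-5p (0.58 ± 0.13; 0.000543). miR-186-5p had 0.0619% to 0.132% G in run 1 and 0.132% to 0.207% in run 2, higher at 8 of 8 times. The largest G difference in either direction was that of miR-30d-5p, which was lower by 1.04 ± 0.30 (0.00516) on 1 to 17 G reads per library. The calls of miR-192-5p and miR-335-3p were lost without some single libraries (highest adjusted p 0.109 and 0.065). With DESeq2, 8 G shares were higher and none lower.

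Among mixed shares the fall in run 2 was largest in miR-27b-5p, the minor arm of the miR-27b hairpin, at -2.02 ± 0.23 log2 (adjusted p = 6.88e-08, edgeR). Its share was 0.808% to 1.5% in run 1 and 0.0440% to 0.476% in run 2, on 1 to 30 reads per library. miR-125b-5p, a regulator of p53 signalling, had 2.10% to 2.67% in run 1 and 1.09% to 1.4% in run 2 (-0.92 ± 0.03; adjusted p = 9.94e-18). miR-151-5p had 1.13% to 1.54% and 0.557% to 0.804% (-0.95 ± 0.04; adjusted p = 2.46e-15). The runs of these 3 miRNAs did not overlap at any time. Higher in run 2 were, among others, miR-93-5p (0.26 ± 0.09; 0.0163, and 0.0659 without 1 library), miR-155-5p (0.23 ± 0.07; 0.0119) and miR-21a-5p (0.19 ± 0.03; 1.82e-06). With non-templated reads as the denominator these 3 differences were -0.0368, -0.00256 and -0.0769, and that of miR-93-5p was -0.108 with reference reads. None of these values passed (edgeR adjusted p 0.814, 0.996, 0.313 and 0.441), so no difference was called in either direction.

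The other forms differed between the runs too. C shares were lower in run 2 in 42 and higher in 5 of 61 miRNAs tested, with a median of -2.34 log2, and A shares were higher in 74 of 98 with none lower. Run differences of the mixed and C shares had a rho of 0.54 across 59 miRNAs, and those of G and C 0.14 across 27. Of the 40 miRNAs tested for both mixed and C that were lower in C, 16 were also lower in mixed. Whether run, experiment or library making moved these shares cannot be told apart.

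Summed over all miRNAs of a library, the G share was 0.106% ± 0.00441 in run 1 and 0.118% ± 0.00407 in run 2 (SD, n = 8), higher in run 2 at 8 of 8 times. The mixed share was 2.66% ± 0.15 and 2.79% ± 0.202, also higher at 8 of 8. For each, an exact 2-sided sign-flip permutation test gave p = 0.0078125, the smallest that 8 times allow, and the same after adjustment over the 5 forms. As in the run tests above, all 8 times compare the same 2 runs. The p thus covers agreement over times and no spread between experiments. The mixed sum went against most single miRNAs. miR-92a-3p, which gives most mixed reads, stood at 21887 to 28450 CPM in run 1 and 24555 to 30814 in run 2, and without it the difference was -0.0204 percentage points (exact permutation p = 0.164).

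The library-wide mixed share rose with hours, from 2.51% and 2.53% at 0 h to 2.97% and 3.03% at 12 h. Pearson's r was 0.877 (permutation p = 5.0e-05) and Spearman's rho 0.876 (p = 2.0e-05) over 16 libraries, r was 0.813 without the 2 libraries farthest from the median hour, and within runs r was 0.929 and 0.963. Much of the rise came with miR-92a-3p, whose mixed reads went from 1.24% and 1.33% of all reads at 0 h to 1.56% and 1.68% at 12 h. Its level went from 22546 and 24922 CPM to 28450 and 30814 CPM, while its own mixed share had no called trend. Without miR-92a-3p the library-wide mixed share went from 1.30% and 1.23% to 1.45% and 1.39%, and r was 0.899. For G, r was -0.190 (p = 0.481) and rho -0.101 (p = 0.717), with -0.251 and -0.453 within runs, so no relation to time passed.

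**Figure D5:**
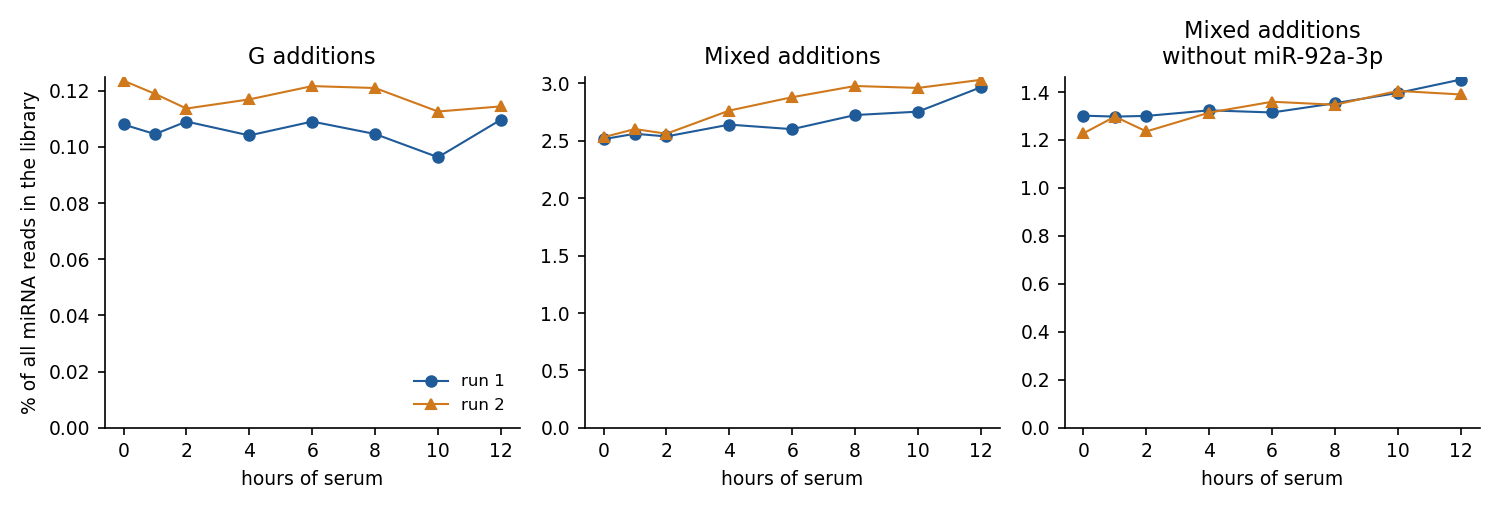
Share of all miRNA reads in a library with G additions, with mixed additions, and with mixed additions after leaving out miR-92a-3p, in % against hours of serum; circles are run 1, triangles run 2, and axes start at 0. G is higher in run 2 at every time, and the mixed share ends above its 0 h value in both runs with or without miR-92a-3p.

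At the abundance threshold, miR-17-5p (202.1 CPM; 0.05% G and 1.49% mixed) and miR-19b-3p (200.2 CPM; 0.0229% and 0.0550%) lay just inside. miR-5099 (192.1 CPM; 5.67% and 11.8%) and miR-140-5p (187.3 CPM; 0.00490% and 0.348%) lay just outside.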

How the data were processed

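Per the labels' protocols, 1000 ng of total RNA per sample went into an Illumina TruSeq small RNA kit. The authors deposited raw read counts per miRNA and read class, 1 column per library, and per the submitters' processing notes CASAVA 1.8.0 was used. No source used here gives the aligner, the miRNA reference or how reads matching several miRNAs were assigned. The table has 6511 entries, and 1 identical duplicate was dropped. The total of a miRNA was the sum of its reference, trimmed, 3′ and 5′ classes, and the 5 addition forms summed exactly to the non-templated 3′ class in every miRNA.

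Shares were tested with edgeR 4.0.16 (limma 3.58.1, R 4.3.3): quasi-likelihood F-tests on the counts of all addition entries, with the log of the miRNA's total as offset, filterByExpr (min.count 10), and p-values adjusted by Benjamini-Hochberg over 614 entries with a threshold of 0.05. All 16 libraries entered 1 fit. SEs are the size of the effect over the square root of F. Changes are called only past that threshold. The main trend and 12 h fits had no term for run; DESeq2 1.42.0, other denominators, other filters, the block and leaving out each library were alternatives.

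The replicate numbers pair the libraries, since the header puts each number in its own run: deviations from the time means correlated in all 28 pairs of same-numbered libraries for all forms together (r 0.896 to 0.934) and for the mixed form (0.218 to 0.605), and over 0.1 in 18 of 28 for G alone. No libraries of the same time were duplicates (chi-square between them 58.8 to 324 per degree of freedom). Intervals and limits from counts cover counting error only, as reads carry no molecular identifiers. A limit for 0 reads is 3 counts of the total.

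miRNAs were named by rule: the 10 highest shares of each form, the 5 most abundant, the lowest G shares, the 5 largest called rises and falls of each test with the same sign in both runs, and those at the 200 CPM limit. Others named beside them (paralogs, list members and exceptions) were chosen after their values were seen. The miRNAs and lists were chosen with earlier results of these data known. The statistics were tested on simulated data. Simulated libraries were drawn independently, with no run difference for the trend and 12 h tests, so the pairing by run was not covered. A further time point named in the design text was not analysed here.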

Additional observations from a re-analysis of the deposited data

Results flagged for a closer look

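Reads of these forms were also present in data that the comparisons above do not use. G additions at the 5′ end made up 0.000806% of all reads (878 reads), with miR-143-3p giving 403 of them. Mixed additions at the 5′ end made up 0.0230% (25085 reads), of which miR-5099 gave 16672, equal to 79.7% of that miRNA's own reads. Below 200 CPM, miR-106b-5p had a 3′ G share of 1.07% and miR-5099 one of 5.67%. There is no control sample, and the part of sequencing or alignment error in these reads was not tested.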

How the results depend on the processing

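The counts of called miRNAs changed with the denominator and with the replicate block. Mixed trends (50 called) numbered 25 with non-templated reads as denominator and 30 as levels on TMM-scaled totals, and mixed 12 h differences (23) numbered 7 without a low-count filter, 5 with non-templated reads, 13 as levels and 50 with the replicate block. G trends (2) numbered 1 with DESeq2, 0 without a filter, 4 with non-templated reads, 14 with reference reads, 6 as levels, 6 with the block and 4 in run 2 alone. G differences at 12 h (0) numbered 1, 4, 3 and 3 with non-templated reads, with reference reads, as levels and with the block. Run differences numbered 8 for G (14) with DESeq2 and 19 for mixed (42) with no term for time. The run-alone fits, the fits of G and mixed entries alone the overlaps of forms with the block and the settings without miR-92a-3p were chosen after seeing the data. Leaving out 1 library gave 42 to 50 mixed trends, 5 to 20 mixed 12 h differences, 38 to 43 mixed and 11 to 15 G run differences, 1 to 4 G trends and 0 G 12 h differences. With the pairing by replicate block the counts of A, U and C trends also moved by over 1.5 times: A rises went from 22 to 60, U from 5 higher and 11 lower to 14 and 22, and C rises from 8 to 23.

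Of 818 alternative values for 32 named entries, 699 kept direction and side of the threshold, 13 reversed and the others lost the threshold. With non-templated reads as denominator the reversed values were -0.00695 for the let-7c-5p G trend, 0.000215 and 0.00995 for miR-222-3p mixed (trend and 12 h), and -0.00256, -0.133, -0.0769 and -0.0368 for the mixed run differences of miR-155-5p, miR-16-5p, miR-21a-5p and miR-93-5p. With reference reads they were 0.00906 and 0.160 for miR-222-3p, -0.108 for miR-93-5p and -0.00773 for miR-351-5p, and as levels 0.0495 for the miR-125b-1-3p trend and -0.0288 for miR-351-5p. None of these reversed values passed the threshold. Library-wide, the G relation to hours was 0.282 without the 5 most abundant miRNAs, 0.116 as a median over miRNAs and -0.575 with non-templated reads. The permutation p of the last was 0.0190, not adjusted over the 5 forms. The mixed run difference was -0.0494 as a median over miRNAs and -0.0204 without miR-92a-3p. Leave-outs ranged from 0.0116 to 0.0132 and 0.104 to 0.141 percentage points for the G and mixed run differences, and from -0.280 to -0.0374 and 0.850 to 0.905 for their r with hours. The cause of these shifts was not tested. G shares of low-count miRNAs rest on few reads, and 63 of the 112 could not be tested for G.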
